A study of Caenorhabditis elegans with 2 samples.

Results

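JUN-1, the worm Jun, which forms AP-1 dimers on DNA, was mapped by ChIP-seq (chromatin immunoprecipitation and sequencing) in first-stage larvae of Caenorhabditis elegans, and its peaks were read at 10 genes of the JNK-type kinase pathways. These genes were picked by name as known parts of the JNK and KGB-1 kinase pathways, out of 19973 nuclear protein-coding genes. The genes are jnk-1, jkk-1, unc-16, kgb-1, kgb-2, mek-1, mlk-1, max-2, shc-1 and vhp-1. For each of them a gene window was searched, from 5000 bp upstream of the annotated gene start to the gene end, introns included, for peak summits, the highest point of each peak. A summit in a gene window records a position and does not show that the gene is regulated.

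All libraries came from strain OP234, which carries the unc-119(ed3) III mutation and the insertion wgIs234, and the labels name eGFP-jun-1 as the ChIP target and jun-1 in the antibody field. The animals were L1 larvae of both sexes, and chromatin was taken from the whole organism, so sites bound in few cells and sites bound weakly in many cannot be told apart. The labels give 2 biological replicates in 1 group, with no second genotype, stage or treatment, and both replicates were set against the same control alignment. The protein studied is thus a tagged copy from 1 inserted transgene, and the labels say nothing about its level relative to the native protein.

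The deposited lists held 28101 peaks for replicate 1, 30000 for replicate 2, 19646 for both replicates called together (the pooled list) and 2305 after filtering by the irreproducible discovery rate (IDR), a measure of how far replicates rank a peak differently. The round number for replicate 2 may be a limit set on that list, which the sources used here do not state. The 2305 IDR-thresholded peaks were exactly the 2305 strongest pooled peaks, with the same signal in both lists. A rank in the pooled list is therefore also the rank among IDR-thresholded peaks. The IDR-thresholded list thus equals a cut on pooled signal, and a peak in it need not rank alike in both replicates. The replicate and pooled lists include background by their own name, so a summit found there alone is a weaker record than an IDR-thresholded one. The signal is the authors' own value for each peak, on a scale not given in the sources used here, and was used only to rank and describe peaks within a list. The lists hold no read counts, so depth is unknown and no value carries a counting error; the replicate values stand in for the spread.

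Jun N-terminal kinases are stress-activated MAP kinases. In each pathway a MAP kinase kinase kinase phosphorylates a MAP kinase kinase, which phosphorylates the JNK-type kinase, and scaffolds, adaptors and phosphatases set where and how long the signal lasts. In worms the JNK-1 pathway acts mainly in neurons, in locomotion and axonal transport, whereas the KGB-1 pathway serves stress resistance and the regrowth of cut axons. AP-1 proteins are known substrates of such kinases.

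Summits lay at 7 of the 10 genes in the IDR-thresholded list, against 18.6% of all protein-coding genes under the same window rule. That share is not matched for window length. The windows of the 10 ran from 6.76 kb at mek-1 to 22.6 kb at vhp-1. Most of them were longer than the median gene window of 7.03 kb. The 7 genes were unc-16, kgb-1, mek-1, mlk-1, max-2, shc-1 and vhp-1, and the genes without such a summit were jnk-1, jkk-1 and kgb-2. Of the 14 summits, 8 lay at vhp-1, the phosphatase gene of the KGB-1 pathway, and the other 6 genes had 1 each. By place, 7 summits lay in introns, 6 upstream of the gene start and 1 in an exon. Several of these summits lay nearer to another gene, as given at each gene.

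Sequences of 200 bp centred on the summit are shown for 7 of these peaks. These windows were chosen for the AP-1 element, for the repeated words described with the peaks, or for lying in the promoters of kinase genes. The shc-1 window, which holds AP-1 matches as well, is described with the gene by its matches alone. They were read on the plus strand of WBcel235 (ce11) from its RefSeq copy, and capitals mark matches to the 10 motifs searched on both strands.
vhp-1 intron, II:5336975-5337174: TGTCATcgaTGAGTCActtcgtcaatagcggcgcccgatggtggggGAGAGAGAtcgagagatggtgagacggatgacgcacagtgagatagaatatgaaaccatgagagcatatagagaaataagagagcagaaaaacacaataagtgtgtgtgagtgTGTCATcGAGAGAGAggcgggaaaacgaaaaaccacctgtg
vhp-1 intron, II:5332738-5332937: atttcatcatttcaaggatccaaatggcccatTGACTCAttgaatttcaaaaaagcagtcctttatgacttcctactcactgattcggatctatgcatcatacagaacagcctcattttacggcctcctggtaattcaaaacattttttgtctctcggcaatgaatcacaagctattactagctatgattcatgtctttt
vhp-1 intron, II:5330249-5330448: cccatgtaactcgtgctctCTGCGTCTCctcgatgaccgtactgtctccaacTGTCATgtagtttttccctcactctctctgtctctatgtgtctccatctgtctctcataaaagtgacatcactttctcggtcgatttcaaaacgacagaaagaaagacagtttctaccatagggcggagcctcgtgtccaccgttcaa
vhp-1 upstream, II:5321904-5322103: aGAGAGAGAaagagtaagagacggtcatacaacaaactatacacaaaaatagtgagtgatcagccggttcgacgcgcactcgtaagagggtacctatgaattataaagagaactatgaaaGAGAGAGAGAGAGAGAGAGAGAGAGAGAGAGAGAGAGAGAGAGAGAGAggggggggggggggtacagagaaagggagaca
kgb-1 promoter, IV:410476-410675: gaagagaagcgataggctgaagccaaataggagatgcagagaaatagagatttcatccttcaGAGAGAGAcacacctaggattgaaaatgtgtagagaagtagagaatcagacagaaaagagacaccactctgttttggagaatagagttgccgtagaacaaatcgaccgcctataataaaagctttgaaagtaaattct
mlk-1 promoter, V:5065228-5065427: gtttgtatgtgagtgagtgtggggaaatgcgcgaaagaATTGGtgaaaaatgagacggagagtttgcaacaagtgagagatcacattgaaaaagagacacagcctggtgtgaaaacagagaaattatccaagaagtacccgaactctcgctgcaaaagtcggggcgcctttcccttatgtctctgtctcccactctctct
max-2 intron, II:13016484-13016683: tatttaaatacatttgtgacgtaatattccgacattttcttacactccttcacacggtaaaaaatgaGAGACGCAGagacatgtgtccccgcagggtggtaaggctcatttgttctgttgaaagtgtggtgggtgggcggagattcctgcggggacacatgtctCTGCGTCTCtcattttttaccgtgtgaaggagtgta

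vhp-1 encodes a dual-specificity MAP kinase phosphatase that switches KGB-1 off, and it held more IDR-thresholded summits than any other protein-coding gene. The gene (WBGene00006923) lies on the plus strand at II:5323276-5340829. Its window of 22.6 kb held 8 summits, a number that 1 gene of 19973 (0.00501%) reached. The next genes were T28B11.1, din-1 and ppfr-1 with 7 each. The 8 of vhp-1 count the overlapping pair of upstream peaks described below separately. Its lead over these genes depends on that count. Among all genes, 278 had a window at least as long, and 86 of those held a summit, with a median of 0 per gene. The lead did not hold in every list. With the 2305 strongest peaks of replicate 2 alone vhp-1 had 10 and no gene had more. With those of replicate 1 alone it had 6, and 4 genes had more, up to 9 at T28B11.1. Among the stronger 1152 IDR-thresholded peaks it had 5, and zfp-1 had 6.

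**Figure D1:**
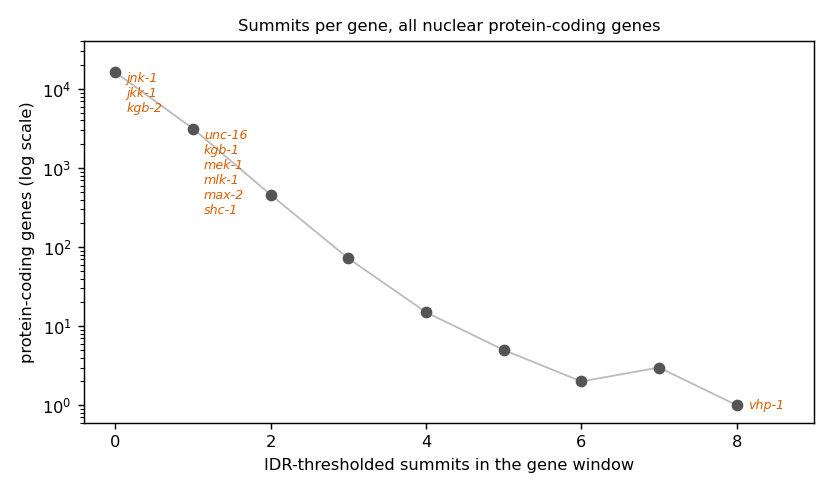
Number of nuclear protein-coding genes (vertical axis, log scale) by the number of IDR-thresholded JUN-1 summits in the gene window (horizontal axis), with the 10 pathway genes named beside their point. Most genes, 16265, had 0 summits and 3151 had 1, while vhp-1 stood alone at 8. The 8 count an overlapping pair of upstream peaks separately.

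The strongest vhp-1 site lay in an intron, far from the gene start. The peak at II:5337016-5337101 had its summit 13799 bp past the start, with a signal of 194 and rank 49 of 2305. In replicate 1 its signal was 103, at rank 64, and in replicate 2 it was 98.2, at rank 42. Both replicate lists thus placed it among their strongest sites. The nearest annotated vhp-1 transcript start, that of F08B1.1b.1, lay 978 bp before the summit. The window shown above holds 1 AP-1 element, TGAGTCA, with its centre 88 bp from the summit, 2 matches to GAGAGAGA and 2 to TGTCAT. This peak was only 86 bp long, shorter than the window. Of these matches only the GAGAGAGA at II:5337021-5337028 lay inside the peak, and the AP-1 element lay outside it.

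A pair of further intronic sites of vhp-1 were also strong in both replicates. The peak at II:5330177-5330520, 7073 bp past the gene start, had a signal of 85.6 (rank 378), with 47.3 (rank 420) in replicate 1 and 39.2 (rank 329) in replicate 2. It lay within an annotated antisense RNA gene, anr-54, and 1137 bp before the start of transcript F08B1.1a.1. The peak at II:5326276-5326619, 3172 bp past the gene start, had a signal of 73.2 (rank 507), with 43.8 (rank 487) in replicate 1 and 29.2 (rank 586) in replicate 2. None of the 10 motifs matched in the 200 bp around that summit, whereas the window of the former peak held CTGCGTCTC and TGTCAT.

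The other 3 intronic summits of vhp-1 were weaker. At II:5335345-5335688, 12241 bp past the gene start, the signal was 49.5 (rank 978), with 28.0 (rank 1050) in replicate 1 and 18.2 (rank 1293) in replicate 2. At II:5338370-5338713, 15266 bp past the start, it was 45.6 (rank 1113), with 30.9 (rank 881) and 15.6 (rank 1665) in replicates 1 and 2. These summits lay 580 bp before the start of transcript F08B1.1b.1 and 231 bp before that of F08B1.1g.1, inside the promoter windows of internal starts. At II:5332666-5333009, 9562 bp past the start, the signal was 30.9 (rank 2031), with 11.9 (rank 3993) in replicate 1 and 18.8 (rank 1237) in replicate 2. This last peak fell outside the 2305 strongest of replicate 1, and its window, shown above, holds an AP-1 element centred 65 bp from the summit.

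Upstream of vhp-1 a pair of overlapping peaks was in the weaker part of the IDR-thresholded list. The peak at II:5321832-5322175, 1272 bp upstream, had a signal of 34.9 (rank 1705), and that at II:5322120-5322463, 984 bp upstream, had 28.6 (rank 2280). Replicate 1 had 1 peak for both, with a signal of 19.8 (rank 1867) and its summit 6 bp from the nearer of them. Replicate 2 had a summit for each, with 18.0 (rank 1315) for the farther and 8.97 (rank 4316), outside its 2305 strongest, for the nearer. The replicates therefore placed their stronger upstream summit at different positions, and a single site or a pair of sites cannot be told apart here. The window of the farther summit holds an unbroken GA repeat of 48 bp at II:5322024-5322071. Its effect on read placement was not tested.

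**Figure D2:**
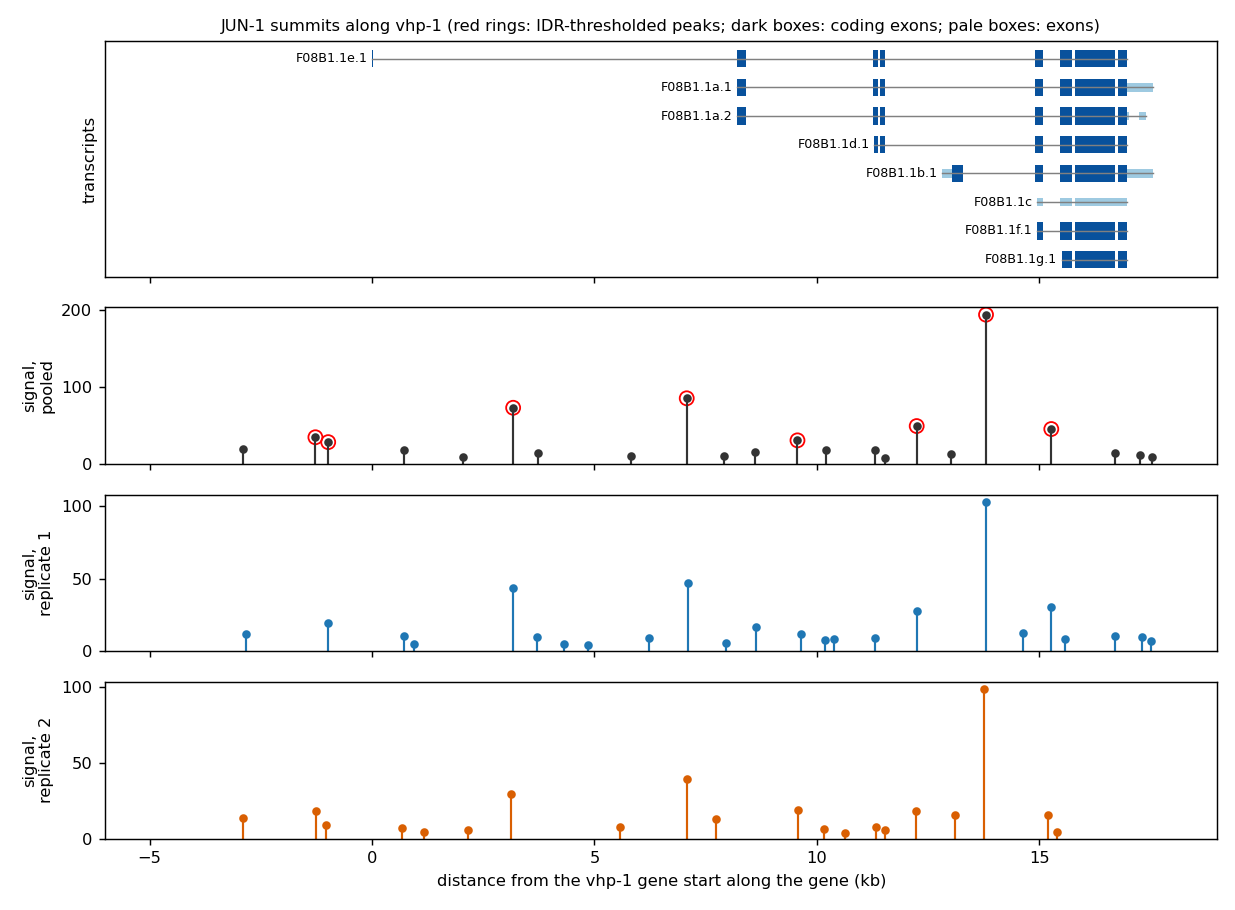
Summits along vhp-1, with distance from the gene start in kb on the horizontal axis: annotated transcripts on top, then the signal of every summit in the pooled list, replicate 1 and replicate 2. Red rings mark the 8 IDR-thresholded peaks; the intronic summit 13799 bp past the start is the tallest in all 3 lists, at 194, 103 and 98.2.

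The 8 vhp-1 summits spanned 16538 bp, with gaps of 288 to 4156 bp between neighbours. The gene has 8 annotated transcripts with 6 different starts, which lie from 0 to 15497 bp past the gene start. For 3 of the intronic summits the nearest protein-coding gene start was that of F09E5.14, at 6333 to 9358 bp, and for the other 5 vhp-1 summits it was vhp-1 itself. In the pooled list vhp-1 held 22 summits, in replicate 1 it held 24 and in replicate 2 it held 20. In these whole lists, background included, it did not lead: 4 genes held more in the pooled list, up to 27 at T28B11.1, 8 held more in replicate 1 and 19 in replicate 2, up to 45 and 38 at nhr-27.

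kgb-1, which encodes the JNK-type kinase that VHP-1 dephosphorylates, had 1 IDR-thresholded summit in its promoter. The gene (WBGene00002187) lies on the minus strand at IV:405621-410035. The peak at IV:410404-410747, 541 bp upstream, had a signal of 53.1 (rank 860), with 31.4 (rank 859) in replicate 1 and 18.8 (rank 1235) in replicate 2. It was among the 2305 strongest in both replicates. Its summit was nearer to the start of a neighbour, T07A9.12, at 291 bp, and lay in the promoter windows of both genes. The replicate 2 summit was 169 bp away from it, farther than the 25 bp of replicate 1. The window shown above holds 1 match to GAGAGAGA.

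kgb-2, the close relative of kgb-1, had no IDR-thresholded summit. The gene (WBGene00002188) lies at IV:3606784-3609229 on the plus strand. Its strongest pooled summit had a signal of 14.9, at rank 6048 of 19646, in the untranslated part of its last exon. Replicate 1 had 1 summit in that exon, with 6.93 at rank 10300 of 28101, and 1 in the promoter window, 317 bp upstream, with 5.62 at rank 15201. Replicate 2 had 0 in the whole gene window, although weaker peaks could be missing if its list was cut at 30000. The nearest IDR-thresholded summit, with a signal of 37.6, lay 2884 bp past the gene end and was closest to the start of ltah-1.2. So the kinase paralogues differed in the lists, without a test of that difference.

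Upstream of KGB-1, the genes of both kinase tiers had a summit, but at different places. mlk-1 encodes the MAP kinase kinase kinase of the pathway, at V:5056378-5064811 on the minus strand (WBGene00003374). Its promoter peak at V:5065156-5065499, 517 bp upstream, had a signal of 38.3 (rank 1480), with 14.2 (rank 3036) in replicate 1 and 23.8 (rank 844) in replicate 2. The peak was thus among the 2305 strongest of replicate 2 and outside those of replicate 1. Its summit lay nearer to mlk-1 than to any other protein-coding start, and its window holds 1 CCAAT word.

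mek-1 encodes the MAP kinase kinase that activates KGB-1, at X:7479248-7481005 on the plus strand (WBGene00003185). Its 1 IDR-thresholded peak, at X:7475051-7475394, had its summit 4025 bp upstream and only 205 bp from the start of the cohesin gene coh-1, in whose promoter window it lay. The signal was 28.8 (rank 2258), with 21.7 (rank 1631) in replicate 1 and 5.80 (rank 10538) in replicate 2. It was thus among the 2305 strongest of replicate 1 and far below them in replicate 2. The promoter of mek-1 itself held a weaker pooled summit 567 bp upstream, with a signal of 16.6 (rank 5091). Replicate 1 had 9.80 (rank 5459) at 538 bp and replicate 2 had 9.82 (rank 3619) at 445 bp, so in replicate 2 this summit ranked above the IDR-thresholded one.

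max-2 encodes a PAK-type kinase and shc-1 an adaptor of the Shc family, which act upstream of MLK-1 in axon regrowth. max-2 (WBGene00003144) lies on the minus strand at II:13014317-13025844, and its peak at II:13016412-13016755 was intronic, 9260 bp past the start. The nearest protein-coding gene start was that of another gene, F18A11.5, at 2298 bp, and the summit also lay in the gene window of F18A11.5. The signal was 32.9 (rank 1879), with 17.1 (rank 2292) in replicate 1 and 13.8 (rank 2046) in replicate 2. Both lists placed it near the end of their strongest 2305. In the promoter of max-2 a pooled summit 373 bp upstream had a signal of 20.8 (rank 3612), with 9.86 (rank 5404) in replicate 1 and 10.2 (rank 3378) in replicate 2. A further IDR-thresholded summit, with a signal of 41.2, lay 173 bp outside the max-2 window and was closest to the start of F18A11.2.

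The intronic max-2 window consists largely of an inverted repeat. It holds CTGCGTCTC once on each strand, within arms of at least 55 bp, II:13016524-13016578 and II:13016629-13016683, that are exact reverse complements. The right arm ends at the last base of the window, so the full length of the arms was not measured. Of the 2305 windows, 1 had arms that long, which was this one, and the median of the longest arm was 7 bp. CTGCGTCTC on both strands occurred in 10 of the 2305 windows. This search was added after the sequence had been seen, and how reads were placed in such a repeat was not tested.

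shc-1 (WBGene00018788) lies on the minus strand at I:969088-976560. Its peak at I:973041-973384 had its summit 3347 bp past the start, in an exon outside the coding sequence and 80 bp before the start of transcript F54A5.3a.1. The signal was 41.1 (rank 1328), with 15.0 (rank 2759) in replicate 1 and 25.2 (rank 764) in replicate 2. As at mlk-1, the peak was among the 2305 strongest of replicate 2 and outside those of replicate 1. The window around this summit held 2 matches to AP-1 and 1 each to CTGCGTCTC, GAGAGAGA and CCAAT.

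In the JNK-1 branch the scaffold gene had an IDR-thresholded summit, and the kinase genes did not. unc-16 encodes the JIP3-type scaffold that links JNK to kinesin, at III:9546258-9557450 on the plus strand (WBGene00006755). Its peak at III:9546034-9546377, 52 bp upstream, had a signal of 68.4 (rank 559), with 40.3 (rank 563) in replicate 1 and 28.2 (rank 622) in replicate 2. Outside vhp-1 this was the strongest of the summits, and its ranks in the lists were alike. The summit also lay in an exon of the non-coding RNA gene ZK1098.13 and in the gene window of mut-7. It was the 1 pooled summit in a window of 16.2 kb.

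jkk-1, which encodes the MAP kinase kinase of JNK-1, had a promoter summit below the IDR threshold. The gene (WBGene00002177) lies at X:5368468-5374174 on the plus strand. The pooled summit 207 bp upstream had a signal of 20.7 (rank 3626), with 10.3 (rank 5023) in replicate 1, 243 bp upstream, and 9.99 (rank 3510) in replicate 2, 221 bp upstream. Its position was thus alike in all 3 lists, and its rank was below 2305 in each. The nearest IDR-thresholded summit lay 31764 bp from the gene start.

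jnk-1, which encodes the kinase itself, had several weak summits and none in its promoter window in the pooled list. The gene (WBGene00002178) lies at IV:6957641-6963719 on the plus strand. Its window held 7 pooled summits, 6 of replicate 1 and 8 of replicate 2. The strongest pooled one, 2512 bp upstream, had a signal of 18.3 (rank 4353), and replicate 2 also had its strongest there, 2523 bp upstream, with 8.93 (rank 4344). In replicate 1 the strongest was intronic instead, 1960 bp past the start, with 10.1 (rank 5156). The nearest IDR-thresholded summit lay 38125 bp from the gene start.

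**Figure D3:**
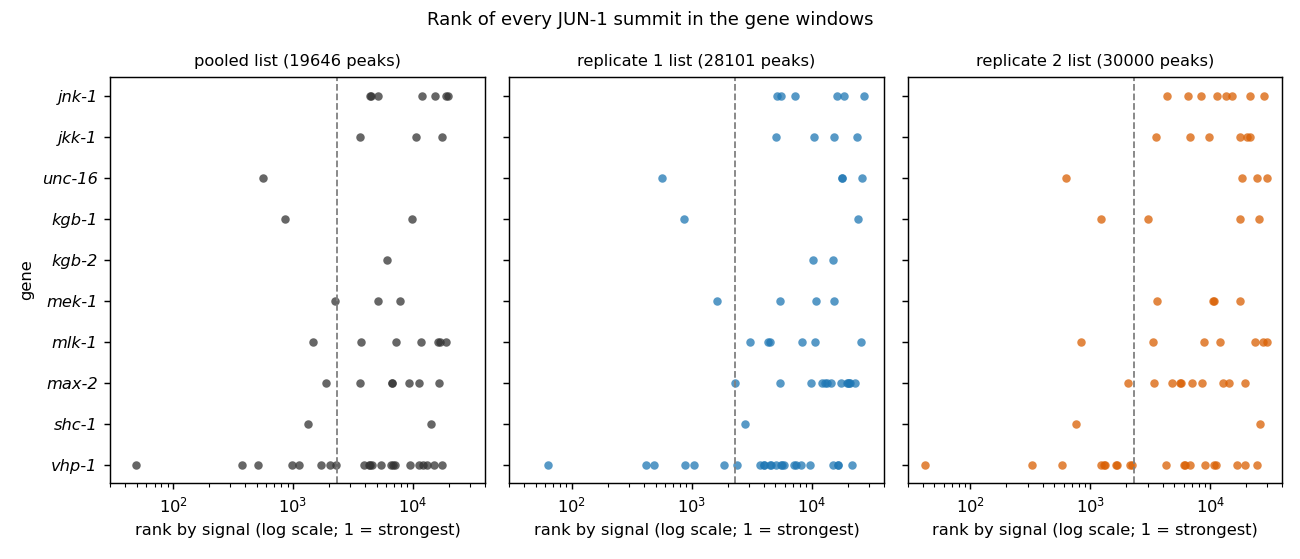
Rank by signal (horizontal axis, log scale, 1 is the strongest) of every summit in the windows of the 10 genes, in the pooled, replicate 1 and replicate 2 lists; the dashed line marks rank 2305. Summits of jnk-1 and jkk-1 lie to the right of the line in all 3 lists, while vhp-1 starts at ranks 49, 64 and 42. Those of kgb-2 lie to the right of the line in the pooled and replicate 1 lists, and replicate 2 had 0 at kgb-2.

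Set side by side, 4 of the 10 genes had an IDR-thresholded summit in the promoter window, against 8.42% of all protein-coding genes. That window runs from 1000 bp before to 200 bp after the gene start. The 4 were unc-16, kgb-1, mlk-1 and vhp-1. At vhp-1 this rested on the weaker peak of the overlapping upstream pair, 984 bp upstream, at rank 2280 of 2305. The kgb-1 summit lay nearer to the start of T07A9.12. In the pooled list, background included, all 10 had a summit in the gene window, against 69.3% of genes. Of them 7 had one in the promoter window, against 33.7%; those added were jkk-1, mek-1 and max-2. The member genes were listed with results of these data known, so these counts are descriptions, without a test.

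Both replicates had an overlapping peak among their strongest 2305 at 10 of the 14 summits, against 70.2% of all IDR-thresholded peaks. That count uses the same replicate peaks for both members of the pair upstream of vhp-1. With the nearest replicate summit in place of any overlapping peak, a rule added after seeing the data, it was 9 of the 14, against 68.4%, since the vhp-1 peak 984 bp upstream dropped out in replicate 2. The 4 summits outside under both rules were the peaks of mek-1, in replicate 2, and of mlk-1, shc-1 and the vhp-1 site 9562 bp past the start, in replicate 1. The median signal of the 14 was 43.4, beside 44.7 for all IDR-thresholded peaks, and 7 of them lay above that median. Outside vhp-1 the median was 39.7. The signals of these summits were thus spread around the median of all peaks.

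Per length, the windows of the 10 genes held 0.111 IDR-thresholded summits per kb, 14 in 127 kb, against 0.0238 over the merged windows of all protein-coding genes. vhp-1 had 0.355 per kb. Without vhp-1 the other 9 genes had 0.0577, from 6 summits in 104 kb. In the pooled list the densities were 0.975 per kb at vhp-1, 0.317 at the others and 0.200 over all genes. In replicate 1 they were 1.06, 0.404 and 0.285, and in replicate 2 they were 0.887, 0.433 and 0.305. vhp-1 had the highest density of the 10 in each list, while unc-16, kgb-2 and shc-1 were below the value of all genes in each of the pooled and replicate lists.

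**Figure D4:**
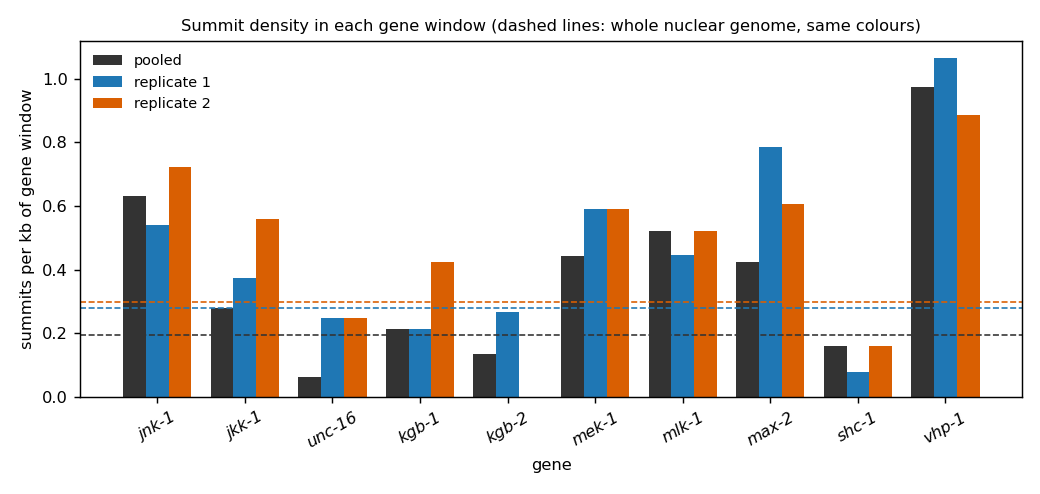
Summits per kb of gene window (vertical axis) for each of the 10 genes in the pooled, replicate 1 and replicate 2 lists; dashed lines give the whole nuclear genome, at 0.196, 0.280 and 0.299. The bars of vhp-1 are the tallest, at 0.975, 1.06 and 0.887.

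Most of the 14 windows held at least 1 of the 10 motifs searched on both strands: 13 of the 14 windows of 200 bp, beside 69.9% of all windows, and 7 of the 14 windows of 100 bp, beside 50.2%. The AP-1 element TGAGTCA matched in 3 of the 14 windows of 200 bp, at shc-1 and at a pair of vhp-1 introns, beside 4.90% of all 2305 windows. In windows of 100 bp it matched in 0 of the 14, beside 2.86%. The CRE-type element TGACGTCA, CACGTG and the forkhead word TGTTTAC matched in 0, beside 1.52%, 7.90% and 3.90% of all windows. A match is a run of letters and not a shown binding site.

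Each of the 6 remaining words was found in a larger share of all windows than the AP-1 element. CCAAT matched in 5 of the 14 windows (29.3% of all windows), at unc-16, mek-1, mlk-1, shc-1 and 1 vhp-1 peak. GAGAGAGA matched in 4 (13.4%), at kgb-1, shc-1 and a pair of vhp-1 peaks. CTGCGTCTC matched in 3 (15.3%), at max-2, shc-1 and vhp-1, and TGTCAT in 3 (9.80%), at mek-1 and a pair of vhp-1 peaks. TGATAA (20.3%) and TTCNNGAA (7.38%) matched in 1 each, both at vhp-1. In the printed windows no match to one motif overlapped a match to another.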

How the data were processed

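JUN-1 ChIP-seq peaks of 2 biological replicates of L1 larvae were analysed on ce11; the ce10 lists were not used. The authors deposited a peak list per replicate, a pooled list and an IDR-thresholded list, each with a signal per peak, a −log10 q-value, and a summit offset. Aligner, peak caller, IDR cutoff and signal scaling were not given in the sources used here. Because the deposited −log10 q-value reached the same maximum for many strong peaks, peaks were ranked by the signal within each list. The summit was the peak start plus the deposited offset, and coordinates are printed 1-based.

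Genes came from Ensembl release 115 (WBcel235), with all 10 members matched by name, and sequences from the RefSeq copy of that assembly. Summits were counted in gene windows (5000 bp upstream to the gene end) and promoter windows (1000 bp upstream to 200 bp downstream). A replicate value is that of the strongest replicate peak overlapping the IDR-thresholded peak by at least 1 base, except for the overlapping pair upstream of vhp-1, where the nearest summit was taken. No test was run, since there is 1 group. The text names the members, their IDR-thresholded summits with the nearest gene start, the strongest summits of members without one, and the 3 strongest genes of each related list; the promoter summits of mek-1 and max-2, the nearest summits outside a window the genes set beside vhp-1 and the pooled-list shares were added after their values were seen. Members and lists were chosen with earlier results of these data known. Alternatives covered other windows, nearest-start assignment, stronger peaks, any peak base, 1 replicate alone and other motif widths. Counting was tested on simulated data with Python 3.11.15, pandas 2.3.3, numpy 2.4.6 and matplotlib 3.10.9. Depth per sample is unknown.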

Additional observations from a re-analysis of the deposited data

How the results depend on the processing

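Of the 10 genes, 7 had an IDR-thresholded summit in the gene window, with 14 summits, and 3708 protein-coding genes had one. The promoter window alone gave 4 genes, 4 summits and 1681 genes of all. Giving each summit to the nearest gene start gave 4, 8 and 1820. The stronger peaks alone gave 3, 7 and 2099. Promoter windows of any annotated transcript start, chosen after seeing the data, gave 5 genes, 7 summits and 1812 genes of all. Leaving out replicate 1 or replicate 2 gave 5 to 6 of the 10 genes, 10 to 15 summits and 3630 to 3726 genes of all: mek-1 was lost without replicate 1, and mlk-1 and shc-1 without replicate 2. The median signal of the 14 summits was 43.4 in the IDR-thresholded list, and 18.8 to 24.8 in the single replicate lists, which have their own scale. In windows of 100 bp a motif matched in 7 of the 14 and in windows of 400 bp in all 14, in place of 13, by construction of the narrower and wider windows. An upstream limit of 2000 bp gave 6 of the 10 genes beside 2559 of all (12.8%), and one of 10000 bp gave 7 beside 5326 (26.7%). No paired analysis was possible because there is 1 group. The lists hold no depth, so small signals cannot be told from background.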

Other observations

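Kinase modules beside the JNK-type pathways held fewer IDR-thresholded summits per kb of gene window. Among 12 genes of the p38 and DLK-1 modules, 3 had a summit, beside 18.6% of all protein-coding genes. The strongest was at dlk-1, a MAP kinase kinase kinase of axon regrowth, with a signal of 57.8 (rank 748), followed by mak-2 (43.6) and tir-1 (31.9). Among 10 genes of the ERK module, 4 had one, the strongest at mpk-1, the worm ERK, with a signal of 118 (rank 191). The phosphatase gene lip-1 had 73.7 and the Ras gene let-60 had 41.1, from a summit nearer to ZK792.12. These lists had 0.0276 and 0.0343 summits per kb, from 4 summits each. The JNK-type genes had 0.111, and those without vhp-1 had 0.0577, from 6 summits. Among those 6, the summits of kgb-1, mek-1 and max-2 also lay nearer to the start of another gene. Over the windows of all protein-coding genes the density was 0.0238. The differences thus rest on few summits and were not tested.

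Of 14 partners of the JNK and KGB-1 pathways, 9 had a summit in the gene window, beside 18.6% of all protein-coding genes. That share is not matched for window length. In the promoter window 2 of the 14 had one, beside 8.42% of all protein-coding genes. For some of the 9 genes the strongest summit lay nearer to the start of another gene. The density over the 14 was 0.0767 per kb, beside 0.0238 over the windows of all protein-coding genes. The strongest summit was at fos-1, which encodes the Fos protein of AP-1, with a signal of 149 (rank 110). Next were the small GTPase gene rho-1, with 99.2 (rank 273) and 3 summits, and the forkhead factor gene daf-16, with 84.7 (rank 384) from a summit nearer to gpx-8. The lists were chosen with results of these data known, and these differences were not tested.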
